A study of Cucumis melo with 18 samples.

Results

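The flesh transcriptomes of the melon (Cucumis melo) inbred lines “B-14” and “B-6” were compared at 30 days after pollination (DAP), in the 6 libraries of the groups “3_14” and “3_6”, out of 18 libraries in the series. The members were chosen by line and stage alone, with 3 libraries of each line. Fruits of “B-14” turn from green to orange and those of “B-6” from green to white. Both lines are untransformed inbreds that were grown together in a greenhouse, and each replicate was taken from separate plants that bore 1 hand-pollinated fruit each. The same pair of lines was also sampled at 10 DAP (“1_14” and “1_6”) and at 45 DAP (“4_14” and “4_6”), with 3 libraries per group. In the study the tissue is fruit flesh, whereas the sample labels call it blade. No list of tissue markers was at hand, so the tissue could not be checked in the data. Levels come from whole tissue, in which fewer cells of a type and less RNA per cell cannot be told apart.

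Orange melon flesh owes its colour to β-carotene. Carotenoids are built in plastids from geranylgeranyl diphosphate: phytoene synthase (PSY) makes phytoene, the desaturases PDS and ZDS and the isomerases Z-ISO and CRTISO turn it into lycopene, and the lycopene cyclases lead to β-carotene or, through the epsilon cyclase, to lutein. Cleavage dioxygenases (CCD and NCED) break carotenoids down, the latter towards abscisic acid. Chlorophyll is made from glutamate through the tetrapyrrole pathway and is dismantled as green fruit lose their colour.

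The 6 libraries held 20651703 to 22105826 counts over 22394 genes, within a range of 20651703 to 22675606 for all 18. Levels are given as CPM, the counts scaled to a common library total with TMM factors. These are not per transcript length, so they compare libraries and not genes. Between replicates, between 29% and 51% of the genes (those with a sum of 20 counts or more in the pair) differed beyond binomial sampling, so no pair was taken as 1 library sequenced again.

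Replicate 3 of “3_14” stood apart. In it, 157 of the 15619 genes with a mean of at least 1 CPM were at least 4-fold above both other replicates of its group and 7 were at least 4-fold below. In the other 5 libraries at 30 DAP, between 0 and 6 genes were that far above, and in the other 17 libraries of the series between 0 and 78. Of the 157 genes, 138 lay within 2-fold of the “3_6” mean in this library. Across genes, its log2 CPM correlated with replicates 1 and 2 of “3_14” at r = 0.972 and 0.977 and with the libraries of “3_6” at 0.968 to 0.969. Replicates 1 and 2 of “3_14” correlated with each other at 0.992 and with “3_6” at 0.945 to 0.963. These are correlations across genes, which are not independent replicates. Counts of DEGs, and named genes whose call changes, are therefore also given without this library.

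**Figure D1:**
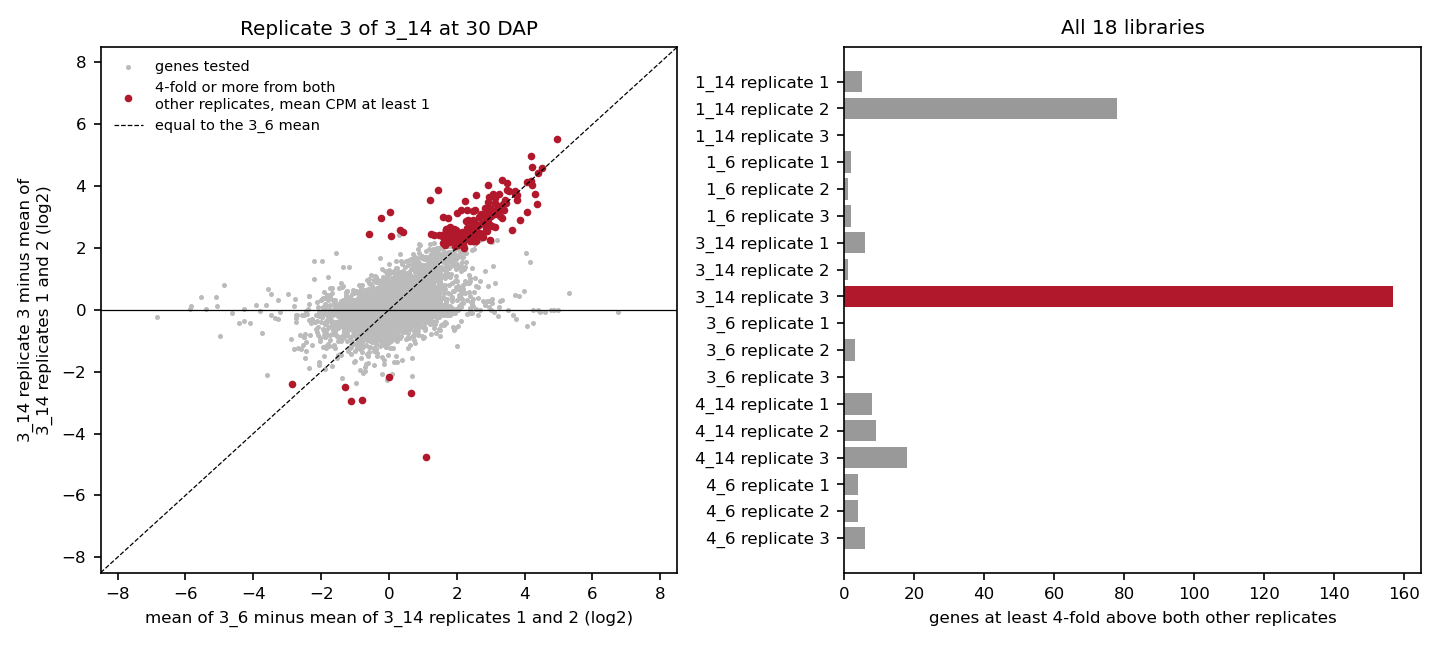
The left panel plots each gene tested at 30 DAP by the log2 difference of “3_6” (x axis) and of replicate 3 of “3_14” (y axis) from the mean of replicates 1 and 2 of “3_14”; points on the dashed line were at the “3_6” mean in replicate 3. The right panel counts the genes at least 4-fold above both other replicates of the same group in each of the 18 libraries, which was 157 in replicate 3 of “3_14” and at most 78 elsewhere.

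The library carried the genes that marked its line. In the 10 and 45 DAP libraries alone, 16 genes had more than 10 counts in every library of “B-14” and at most 3 in every library of “B-6”. At 30 DAP, all 16 were above 10 counts in replicate 3 of “3_14”, as in replicates 1 and 2, and at or below 3 counts in the libraries of “3_6”. In the opposite direction, 6 genes marked “B-6” at 10 and 45 DAP, and all 6 were at or below 3 counts in each library of “3_14”. A wider list of 322 genes was called in the same direction at 10 and at 45 DAP. The 147 of them that were higher in “B-14” lay above the “3_6” mean at 30 DAP by a median log2 value of 0.93, 1.04 and 0.91 in replicates 1, 2 and 3 of “3_14”. The 175 that were lower lay below it by less, with medians of -0.31, -0.27 and -0.20 and with 57.7%, 62.9% and 56% of the genes on that side.

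The first question was how far the orange and the white line differ at 30 DAP. DEGs were called by the study's threshold, with p no higher than 0.05 before adjustment (quasi-likelihood F test of edgeR) and a change of 2-fold or more in either direction. Adjusted p-values use the Benjamini-Hochberg method across every gene tested. Of 15501 genes tested, 1090 were DEGs (7.03%), 546 upregulated (3.52%) and 544 downregulated (3.51%) in “3_14”. By the adjusted p-value there were 865 (5.58%), 447 upregulated and 418 downregulated. The same threshold called 4498 of 16531 genes at 10 DAP (27.2%) and 1746 of 15382 at 45 DAP (11.4%). These counts were not tested against each other. Whether the line difference of a gene changed between stages was tested by a line by stage interaction, called at 2-fold or more with adjusted p no higher than 0.05. Of the 1090 DEGs at 30 DAP, 322 differed at least 4-fold, 143 at least 8-fold and 82 at least 16-fold, and among the 82 were 44 upregulated and 38 downregulated genes.

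Without replicate 3 of “3_14”, 1617 of 15676 genes were DEGs (10.3%), 643 upregulated and 974 downregulated, and 1422 by the adjusted p-value (9.07%). Of the 1090 DEGs, 1003 were kept and 87 were lost. The 614 genes gained were mostly lower in “B-14”, with 472 downregulated and 142 upregulated. In replicate 3 itself, 590 of the 614 (96.1%) lay within 2-fold of the “3_6” mean. Picking the genes by leaving that library out partly fixes this count. A limma voom fit that weights libraries by their spread gave replicate 3 the lowest weight of the 6 (0.34) and called 1447 DEGs.

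Carotenoid genes were DEGs at 30 DAP at about the share of all genes tested. The list held 27 carotenoid genes, 25 from the study's tables or text and 2 more from its RT-qPCR primers. It is shorter than the set of carotenoid genes that the study counts. Of the 27, 26 were tested and 2 were DEGs, which is 7.69% against 7.03% of all genes. The NCED2 gene MELO3C007127.2 was upregulated and CCD4 downregulated in “3_14”. The median log2 fold change of the 26 genes was 0.13, against 0.01 over all genes tested. In 8 of the 26, all libraries of “3_14” lay above all of “3_6”, as did 20.8% of all genes tested, and in 4 all lay below, as did 21% of all genes. The study chose most of this list on these samples, so its counts are not independent evidence. Without replicate 3 of “3_14”, 3 of 26 were DEGs (against 10.3% of all genes): CCD4, the epsilon cyclase gene and CYP707A2.

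CCD4 (MELO3C016224.2) encodes a dioxygenase that cleaves carotenoids. Its levels were 21.2, 18.5 and 19.9 CPM in “3_14” and 39.3, 39.3 and 42.8 CPM in “3_6”. The replicates were close together and the groups lay far apart. The log2 fold change was -1.01, with a standard error (SE) of 0.07 and an adjusted p of 0.00047, and it was -1.02 without replicate 3 of “3_14”. Without replicate 2 of “3_14” (-0.97) or replicate 3 of “3_6” (-0.98), it missed the 2-fold threshold. The line difference moved from 0.01 at 10 DAP to this value (interaction past the threshold, log2 difference -1.01), and it was -1.07 at 45 DAP, where it did not pass the threshold. The interaction missed 2-fold, at -0.84 to -0.98, when any of 6 of its 12 libraries was left out.

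NCED2 (MELO3C007127.2) encodes an enzyme of the step that commits carotenoids to abscisic acid. Levels of 42.6, 33.8 and 46.2 CPM in “3_14” stood against 15.8, 22 and 23.2 CPM in “3_6”, without overlap. The log2 fold change was 1.02 (SE 0.17, adjusted p = 0.0102). It lay just above the 2-fold threshold and below it without replicate 3 (0.92) or 1 (0.98) of “3_14” or replicate 1 of “3_6” (0.87), and in the voom fit of all 6 libraries (0.85). At 10 DAP the same gene was lower in “B-14”, with a log2 fold change of -2.83, and at 45 DAP the value was 0.09.

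CYP707A2 (MELO3C016219.2), named after its values were seen, encodes a hydroxylase that breaks down abscisic acid. It was at 17.8, 32 and 60.5 CPM in “3_14” and 76.3, 37.1 and 47.8 CPM in “3_6”, overlapping through replicate 3. Its log2 fold change was -0.54 with that library and -1.10 (adjusted p = 0.0562) without it.

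The 11 genes from PSY to the lycopene cyclases were followed whether or not they were DEGs. None of them was a DEG with all 6 libraries, and 9 had a higher mean in “3_14”. In 8 of these the unadjusted p-value was at most 0.05, with log2 fold changes of 0.23 to 0.92, and 2 passed an adjusted p-value of 0.05. The share of all genes with a higher mean, or that pass by p-value alone, was not counted. These counts therefore have no background and do not set the 11 genes apart from other genes. The median log2 fold change of the 11 was 0.33 with all libraries and 0.44 without replicate 3. At 10 DAP the median was -0.59, with 9 of the 11 means lower in “B-14”, and at 45 DAP it was -0.06.

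The PSY gene MELO3C025102.2, whose enzyme makes phytoene, had 311, 197 and 188 CPM in “3_14” and 161, 155 and 144 CPM in “3_6”. Replicate 1 of “3_14” was far above its group, yet all 3 of its libraries were above those of “3_6”. This gave a log2 fold change of 0.61 (SE 0.19, adjusted p = 0.0699). At 10 DAP this gene was at 4.58, 5.44 and 5.88 CPM in “1_14” and 30.4, 35.7 and 39.2 CPM in “1_6”, a log2 fold change of -2.69. The line difference changed by 3.31 between 10 and 30 DAP on the log2 scale (past the interaction threshold). The other PSY gene, MELO3C016185.2, was at 4.85 to 6.71 CPM in all 6 libraries with overlapping groups and a log2 value of -0.01, which took the opposite sign under several alternatives.

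The PDS gene MELO3C017772.2 encodes the desaturase that acts on phytoene. It stood at 299, 247 and 178 CPM in “3_14” and 150, 172 and 175 CPM in “3_6”. Its replicate 3 was barely above the highest library of “3_6”, and the log2 fold change was 0.55 (SE 0.18, adjusted p = 0.0756) with all libraries and 0.73 (adjusted p = 0.0026) without it. The second PDS gene, MELO3C020832.2, was at 14.5 to 17.5 CPM in “3_14” and 15.6 to 20.2 CPM in “3_6”, which overlap.

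Z-ISO (MELO3C017709.2), an isomerase of ζ-carotene, had 26, 22.5 and 18.5 CPM in “3_14” and 11.3, 15 and 13.5 CPM in “3_6”. The log2 fold change of 0.76 (SE 0.15, adjusted p = 0.0177) was past the adjusted p-value and under 2-fold. The CRTISO gene MELO3C016495.2, one of 3 for the isomerase that yields lycopene, had 34.8, 24.5 and 23.8 CPM in “3_14” and 18.4, 19.7 and 19.2 CPM in “3_6”, a log2 fold change of 0.55 (SE 0.15, adjusted p = 0.0473). In both genes the groups did not overlap. The CRTISO genes MELO3C016373.2 and MELO3C009571.2 had log2 values of 0.23 and 0.11, and the ζ-carotene desaturase gene (MELO3C024674.2) had 0.30. None of these 3 passed the adjusted p-value with all 6 libraries. Without replicate 3 all 3 did, at log2 values of 0.30, 0.22 and 0.41, still under 2-fold.

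LCY1 (MELO3C020744.2), the lycopene β-cyclase gene, was at 86.4, 74.3 and 62.1 CPM in “3_14” and 56.8, 64 and 57.8 CPM in “3_6”, overlapping through replicate 3. The epsilon cyclase gene (MELO3C004633.2) was low, at 4.74, 3.38 and 2.41 CPM in “3_14” and 1.63, 2.81 and 1.17 CPM in “3_6”, and also overlapped. Its log2 fold change was 0.92 (SE 0.39, adjusted p = 0.139), and it was past the unadjusted threshold without replicate 3 of “3_14” (1.13) or replicate 2 of “3_6” (1.33). It was lower in “B-14” at 10 DAP (log2 -2.10) and at 45 DAP (log2 -3.22), and the line difference changed past the threshold on both sides of 30 DAP, by 3.03 and by -4.12.

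**Figure D2:**
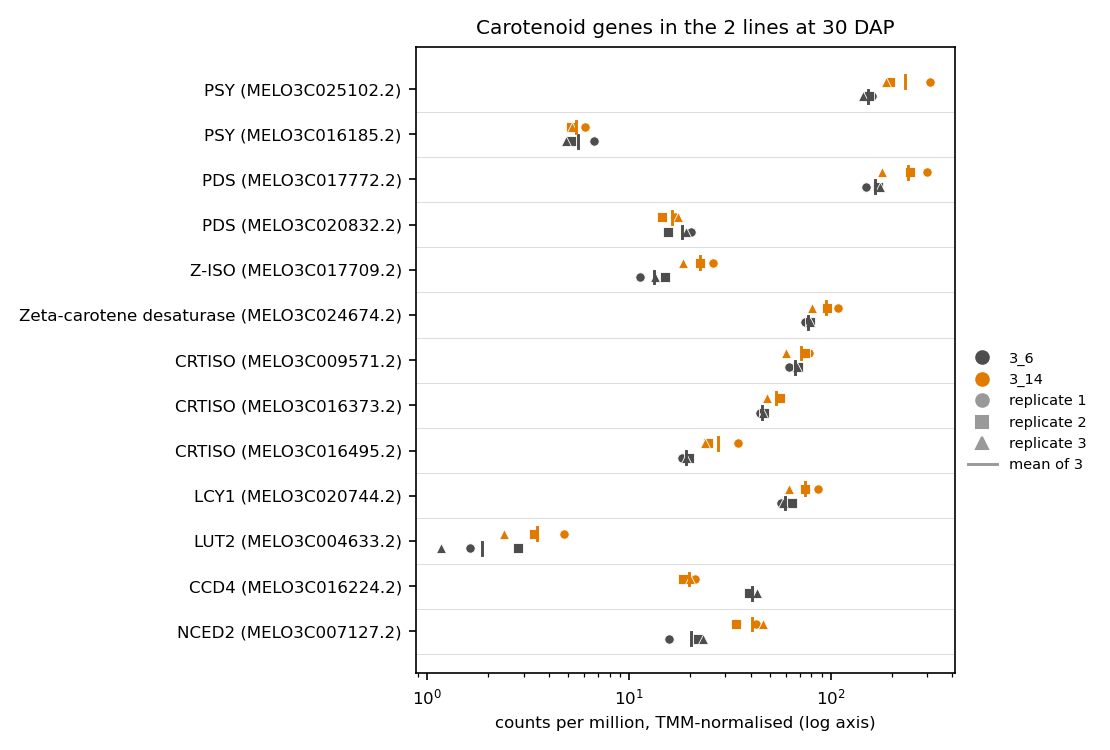
CPM on a log axis of the 11 genes from PSY to the lycopene cyclases and of the DEGs CCD4 and NCED2 in each library of “3_6” (grey) and “3_14” (orange), with replicates as symbols and the mean of 3 as a bar. CCD4 and NCED2 separate by about the 2-fold threshold. Of the 11 genes, all but PSY (MELO3C016185.2) and PDS (MELO3C020832.2) are lowest within “3_14” in replicate 3.

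Across the 27 genes, the line difference changed between 10 and 30 DAP in 13 of 27 tested, 10 towards higher and 3 towards lower levels in “B-14”, against 21.8% of all 17135 genes. Between 30 and 45 DAP it changed in 5 of 26, against 7.76% of all 16104 genes. At 10 DAP, 13 of 27 carotenoid genes were DEGs (27.2% of all genes were), 11 of them downregulated, and at 45 DAP 4 of 26 were (11.4% of all genes).

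Among the genes of porphyrin and chlorophyll metabolism, DEGs were also at about the share of all genes tested. Of 42 listed by the study on these samples, 41 were tested and 3 were DEGs (7.32%, against 7.03%), all 3 upregulated in “3_14”. The median log2 fold change was 0.15. In 16 genes all libraries of “3_14” lay above those of “3_6” (20.8% of all genes tested did) and in 4 all lay below (21% of all genes). At 45 DAP, 13 of 41 were DEGs (11.4% of all genes were), 11 of them downregulated, and between 30 and 45 DAP the line difference fell in 11 of 41, against 7.76% of all genes called in either direction.

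Chlorophyll breakdown was represented by 2 of the 3 DEGs. Pheophorbide a oxygenase (PAO) opens the chlorophyll ring, and its gene MELO3C035546.2 was at 13.5, 14.4 and 18.1 CPM in “3_14” and 2.97, 3.14 and 3.37 CPM in “3_6”. All libraries of “3_14” were several times above those of “3_6”, at a log2 fold change of 2.29 (SE 0.15, adjusted p = 0.00029). At the other stages the log2 fold change was 2.35 at 10 DAP and 1.89 at 45 DAP, and neither interaction was called. A second PAO gene, MELO3C035541.2, had 14, 19 and 13 counts in “3_14” and 0, 0 and 2 counts in “3_6”, at least 4.78-fold higher against a floor of 3 counts per library. The third PAO gene of the list, MELO3C004867.2, had a log2 value of 0.31 (adjusted p = 0.11). How reads shared between copies of a gene were counted is not stated, so the values of single PAO genes are uncertain.

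The third DEG was the PORA gene MELO3C013592.2, for protochlorophyllide reductase, the light-dependent step of chlorophyll synthesis. It had 7.84, 5.46 and 5.9 CPM in “3_14” and 1.73, 2.62 and 2.51 CPM in “3_6”, without overlap, at a log2 fold change of 1.49 (SE 0.23, adjusted p = 0.0069). At 45 DAP the order was the opposite, with 5.45, 4.5 and 4.37 CPM in “4_14” and 17.9, 15 and 16.3 CPM in “4_6” (log2 -1.78). The line difference at 30 DAP differed from those at 10 and 45 DAP past the threshold, by 2.43 and by -3.25. Its paralogue MELO3C016714.2 had a log2 value of 0.26 at 30 DAP and was not a DEG.

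HEMA2 (MELO3C018565.2), one of the genes for glutamyl-tRNA reductase at the start of tetrapyrrole synthesis, turned on replicate 3. Its levels were 9.62, 10.4 and 77.4 CPM in “3_14” and 67.2, 37.5 and 50.8 CPM in “3_6”. Replicates 1 and 2 were below every library of “3_6” and replicate 3 was above all of them. Its line difference was a log2 value of -0.67 (adjusted p = 0.587) with the library and -2.36 (adjusted p = 0.00093) without it. In the fit without replicate 3, 4 of the 41 genes were DEGs, against 10.3% of all genes.

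Transcription factor genes showed the largest change with that library among the lists taken from the study. The study lists 41 genes under this heading, chosen on these samples, of which 1 is the magnesium-chelatase subunit ChlH and no transcription factor. Of 32 tested at 30 DAP, 8 were DEGs (25%, against 7.03% of all genes), 5 upregulated and 3 downregulated in “3_14”. Without replicate 3, 16 of 32 were (against 10.3% of all genes), 6 upregulated and 10 downregulated, and no call was lost. The median log2 fold change was -0.34 with all libraries and -0.43 without replicate 3. At 45 DAP, 35 of 36 were DEGs (11.4% of all genes were), 32 of them upregulated, but the 45 DAP libraries are among those on which the list was chosen.

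The 5 upregulated genes were NAC21/22, WRKY75, bHLH69, ZAT11 and MYB48. NAC21/22 (MELO3C010555.2), of the plant-specific NAC family, was at 10.5, 14.3 and 13.7 CPM in “3_14” and 3.98, 4.76 and 3.77 CPM in “3_6” (log2 fold change 1.64, SE 0.16, adjusted p = 0.0015). Similar line differences were measured for it at 10 DAP (log2 1.88) and at 45 DAP (log2 1.73). WRKY75 (MELO3C008175.2), a family member known in Arabidopsis from phosphate starvation and leaf senescence, was at 15.7, 12.6 and 17.5 CPM in “3_14” and 5.51, 2.95 and 4.44 CPM in “3_6”. The groups did not overlap, at a log2 fold change of 1.83 (SE 0.24, adjusted p = 0.0041). At 45 DAP it reached 482 to 497 CPM in “4_14” and 6.79 to 10.2 CPM in “4_6”, so that its line difference was larger there by 4.00 on the log2 scale (interaction past the threshold).

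The bHLH69 gene (MELO3C014408.2), of the basic helix-loop-helix family, was at 3.63, 5.92 and 6.58 CPM in “3_14” and 0.24, 0.48 and 0.94 CPM in “3_6”. The line difference of 3.27 on the log2 scale (SE 0.45, adjusted p = 0.0050) stood beside a value of 0.03 at 10 DAP, where both lines were at 4.43 to 6.94 CPM. The line difference changed past the threshold between these stages, and at 30 DAP every library of “3_6” was below 1 CPM. ZAT11 (MELO3C020703.2), a zinc finger gene, was at 2.48, 3.98 and 2.13 CPM in “3_14” and 0.38, 0.48 and 0.72 CPM in “3_6” (log2 2.44, SE 0.37, adjusted p = 0.0067). MYB48 (MELO3C020701.2) was at 15.7, 31.1 and 18.9 CPM in “3_14” and 4.79, 12.2 and 7.58 CPM in “3_6”, with wide replicates and no overlap (log2 1.43, SE 0.38, adjusted p = 0.0437).

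The 3 downregulated genes were bHLH71, MADS13 and bHLH149. The bHLH71 gene (MELO3C003421.2) was at 7.4, 9.35 and 9.45 CPM in “3_14” and 21.9, 21.2 and 18.3 CPM in “3_6” (log2 -1.22, SE 0.13, adjusted p = 0.0019). MADS13 (MELO3C033521.2), of the MADS-box family of organ identity genes, was at 5.5, 4.32 and 3.36 CPM in “3_14” and 7.28, 22.1 and 20.6 CPM in “3_6”. Replicate 1 of “3_6” was far below its group, close to “3_14”, and the log2 fold change was -1.91 (SE 0.43, adjusted p = 0.0243). The bHLH149 gene (MELO3C015253.2) was at 1.6, 3.55 and 7.31 CPM in “3_14” and 10.3, 9.81 and 9.6 CPM in “3_6”, with replicate 3 of “3_14” nearest to “3_6”. Its log2 fold change of -1.24 had an adjusted p of 0.106, and without replicate 3 it was -1.92 (adjusted p = 0.0039). When any of the other 5 libraries was left out, the call was lost, at log2 values of -0.86 to -1.27.

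Without replicate 3, 8 more transcription factor genes were DEGs, 7 of them lower in “3_14”. NAC2 (MELO3C010632.2) was at 6.03, 8.46 and 55.2 CPM in “3_14” and 65.3, 46.4 and 57.6 CPM in “3_6”. Replicates 1 and 2 were far below “3_6” and replicate 3 was within its range. On the log2 scale the line difference was -1.27 (adjusted p = 0.288) with the library and -2.95 (adjusted p = 0.00022) without it. The ethylene-responsive factor gene ERF1B (MELO3C006430.2) was at 1.55, 2.07 and 18.2 CPM in “3_14” and 21.5, 14.6 and 18 CPM in “3_6”. On leaving replicate 3 out, the log2 fold change went from -1.30 (adjusted p = 0.311) to -3.30 (adjusted p = 0.00025).

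The same division was seen in the MYB genes. MYBS3 (MELO3C024440.2) was at 27.9, 30.4 and 270 CPM in “3_14” and 224, 127 and 160 CPM in “3_6”, and MYB73 (MELO3C016789.2) was at 24.2, 34.3 and 151 CPM against 215, 116 and 149 CPM. In both genes, replicates 1 and 2 of “3_14” were below all libraries of “3_6” and replicate 3 was not. The log2 fold change of MYBS3 went from -0.63 to -2.54 and that of MYB73 from -1.19 to -2.44 on leaving replicate 3 out. The WRKY24 gene MELO3C020489.2 was at 40.4, 38.2 and 242 CPM in “3_14” and 185, 120 and 151 CPM in “3_6”, and MELO3C009127.2, also annotated as WRKY24, was at 6.12, 6.22 and 19.2 CPM against 28.5, 15.9 and 22.6 CPM. Their log2 fold changes were -1.94 and -1.84 without replicate 3. The bHLH35 gene (MELO3C017424.2) went from -0.57 to -1.73.

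MYB12 (MELO3C034933.2), a factor that regulates flavonol synthesis in Arabidopsis, was the exception in direction. It was at 3.37, 1.69 and 0.41 CPM in “3_14” and 0.38, 1.14 and 1.53 CPM in “3_6”. Replicate 3 was again inside the range of “3_6”, and without it the log2 fold change was 1.31 at an adjusted p of 0.107. Of the 157 genes that were at least 4-fold above both other replicates in replicate 3 of “3_14”, 6 were on the study's lists: HEMA2, MYB73, MYBS3, ERF1B, NAC2 and WRKY24 (MELO3C020489.2). No date, position or other record of this library was at hand, and what sets it apart was not tested.

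**Figure D3:**
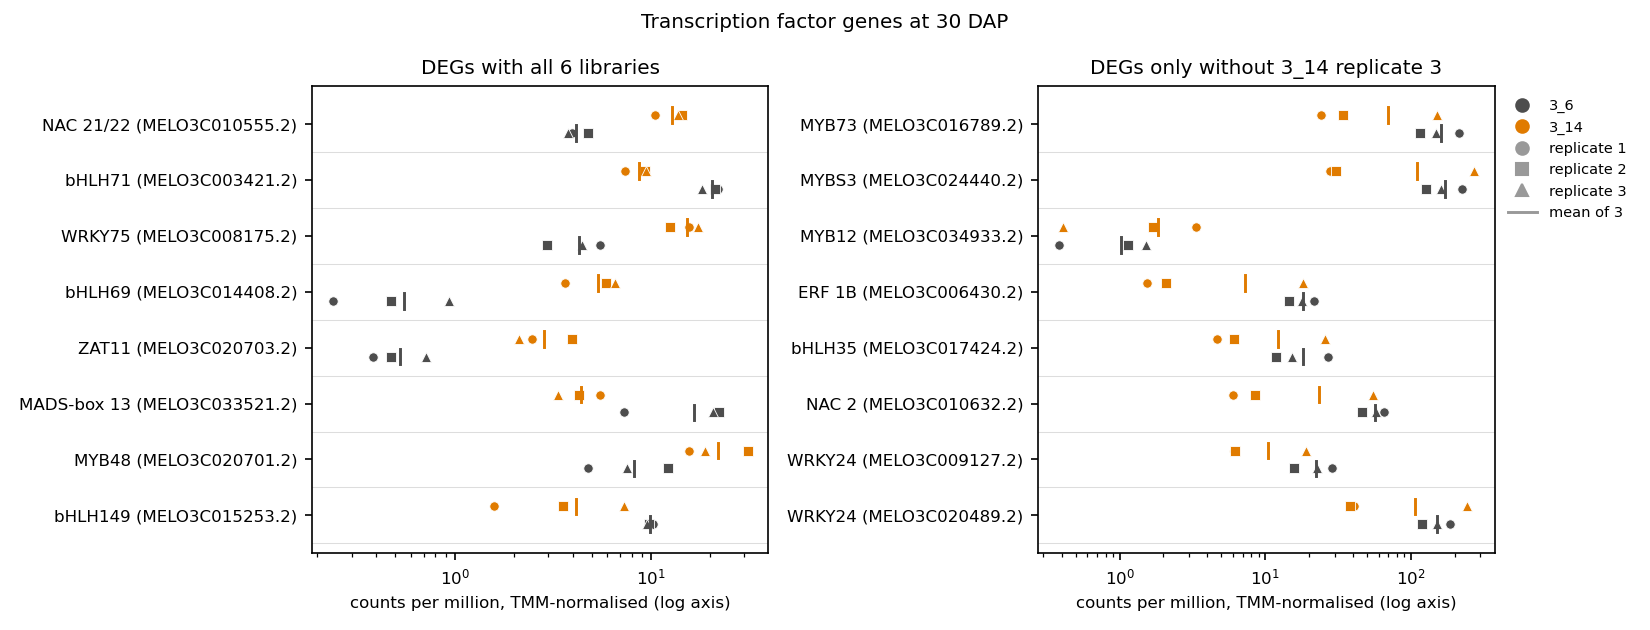
CPM on a log axis of the 16 transcription factor genes called at 30 DAP in each library of “3_6” (grey) and “3_14” (orange), with replicates as symbols and the mean of 3 as a bar. On the left are the 8 DEGs found with all 6 libraries, and on the right the 8 that the same fit added without replicate 3 of “3_14” (orange triangle), which lies within or above the range of “3_6” in all 8. Picking these 8 by leaving that library out partly fixes where it lies.

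The next question was whether the genes that separate the mature fruits already differ at 30 DAP. The study names 20 genes for “4_14” versus “4_6”, chosen on the 45 DAP libraries, which the comparison at 30 DAP does not use. Of 19 tested at 30 DAP, 13 were DEGs (68.4%, against 7.03% of all genes), 8 upregulated and 5 downregulated. Without replicate 3 the count was 13 as well, against 10.3% of all genes. The median log2 fold change was 0.54. Of the 13, 12 had the direction of 45 DAP, whereas 68.5% of all DEGs at 30 DAP that were tested at 45 DAP did. The exception, named after its values were seen, was a dirigent gene (MELO3C014666.2) of a family that guides lignan coupling, with a log2 fold change of 1.48 at 30 DAP and -4.21 at 45 DAP.

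Among the downregulated genes, ECI2 (MELO3C006443.2), a peroxisomal isomerase for the breakdown of unsaturated fatty acids, was at 5.63, 6.13 and 5.09 CPM in “3_14” and 56.3, 58 and 61.1 CPM in “3_6”. The groups were tight and far apart, at a log2 fold change of -3.37 (SE 0.09, adjusted p = 1.5e-05). At 10 DAP the value was 0.37 and at 45 DAP -4.09, and the change from 10 to 30 DAP passed the interaction threshold. The gene for acid phosphatase 1 (MELO3C005493.2) was at 1.77, 1.52 and 2.77 CPM in “3_14” and 32.2, 34.4 and 33.1 CPM in “3_6”, a log2 fold change of -4.03 (SE 0.20, adjusted p = 0.00012). The glutamate receptor gene GLR3.3 (MELO3C017043.2), a cation channel of wound signalling in Arabidopsis, was at 40.9, 41.6 and 45.7 CPM against 124, 133 and 130 CPM (log2 -1.58, SE 0.06, adjusted p = 4.9e-05).

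Beta-amyrin synthase (MELO3C002943.2), which forms the skeleton of many triterpenoids, was at 12.5, 6.9 and 8.76 CPM in “3_14” and 187, 216 and 243 CPM in “3_6”. The line difference was -4.51 on the log2 scale (SE 0.24, adjusted p = 0.00015). At 10 DAP no library of either line was above 1.46 CPM, and at 45 DAP the levels were 138 to 158 CPM in “4_14” and 900 to 1290 CPM in “4_6”. The line difference was smaller at 45 than at 30 DAP by 1.70 on the log2 scale, past the interaction threshold.

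Among the upregulated genes, flavonoid 3'-monooxygenase (MELO3C025797.2), which hydroxylates the flavonoid B ring, was at 88.5, 62.2 and 55.6 CPM in “3_14” and 5.32, 3.52 and 2.96 CPM in “3_6”. On the log2 scale “3_14” was higher by 4.14 (SE 0.275, adjusted p = 0.00034), between 1.58 at 10 DAP and 7.02 at 45 DAP, and both changes passed the interaction threshold. A phenolic glucoside malonyltransferase gene (MELO3C020676.2), for an enzyme that adds malonyl groups to glucosides, was at 20.6, 18.5 and 22.3 CPM against 3.02, 3.62 and 3.68 CPM (log2 2.58, SE 0.12, adjusted p = 0.00010). A light-sensor protein kinase gene (MELO3C005737.2) was at 21.9, 18.3 and 32.6 CPM against 1.15, 1 and 1.62 CPM (log2 4.27, SE 0.29, adjusted p = 0.00037) after a log2 value of -0.33 at 10 DAP. A putative disease resistance gene (MELO3C005504.2) was at 41.4, 42.6 and 43 CPM against 11.1, 11 and 14.4 CPM (log2 1.81, SE 0.12, adjusted p = 0.00029). In none of these 4 genes did the groups overlap, replicate 3 of “3_14” included.

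Genes that the study lists for the change between stages were also compared between the lines at 30 DAP. Of 20 listed for 45 against 10 DAP, all 20 were tested and 6 were DEGs, 3 upregulated and 3 downregulated. Of 17 listed for 30 against 10 DAP, 6 of 17 were DEGs, 2 upregulated and 4 downregulated, against 7.03% of all genes. Without replicate 3 of “3_14”, 7 of each list were, against 10.3% of all genes. The median log2 fold changes were 0.28 and 0.01. The second list was chosen on libraries that include those of 30 DAP, so its count is not independent of them. Among the DEGs of these lists, the WRKY75 gene described above and the methyltransferase gene CRG1 are on more than 1 list. The lists for 45 and for 30 against 10 DAP also share genes that were not DEGs at 30 DAP.

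XTH22 (MELO3C017480.2), which cuts and rejoins xyloglucan in the wall, was at 18, 34.2 and 89.6 CPM in “3_14” and 470, 343 and 459 CPM in “3_6”. Its line difference was -3.16 on the log2 scale (SE 0.57, adjusted p = 0.0124) and -4.01 without replicate 3, the library of “3_14” nearest to “3_6”. At 10 DAP it was at 1662 to 2141 CPM in “1_14” and 790 to 1502 CPM in “1_6”, so that the line difference moved by -3.82 to 30 DAP and by 2.48 from 30 to 45 DAP, both past the interaction threshold. The latter was lost on leaving out any of 6 of its 12 libraries, at 2.26 to 2.51, and was 3.33 without replicate 3 of “3_14”. A second gene of the family, XTH5 (MELO3C026755.2), was low at 30 DAP, at 0.36 to 0.93 CPM in “3_14” and 1.62 to 3.07 CPM in “3_6” (log2 -1.76, adjusted p = 0.0263). A sucrose synthase gene (MELO3C015552.2), for an enzyme that cleaves sucrose, was at 45, 40.2 and 36.8 CPM in “3_14” and 116, 105 and 94.6 CPM in “3_6” (log2 -1.36, SE 0.11, adjusted p = 0.000595). Its line difference was 0.93 at 10 DAP and -0.11 at 45 DAP, and both changes passed the interaction threshold.

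A stearoyl-ACP desaturase gene (MELO3C008413.2), for an enzyme that introduces the first double bond into stearic acid, was at 0.93, 0.63 and 0.45 CPM in “3_14” and 32.3, 20.1 and 20.6 CPM in “3_6”, a log2 fold change of -5.15 (SE 0.31, adjusted p = 0.00027). Another acyl-ACP desaturase gene (MELO3C010739.2) was at 4175, 3085 and 2837 CPM in “3_14” and 1724, 1795 and 1849 CPM in “3_6”. Its log2 fold change was 0.92 (adjusted p = 0.0091), under 2-fold, and 1.03 without replicate 3. The SFR2 gene (MELO3C021253.2), whose Arabidopsis counterpart remodels chloroplast galactolipids in freezing tolerance, was at 260, 267 and 220 CPM against 99.5, 100.2 and 109 CPM (log2 1.29, SE 0.09, adjusted p = 0.000415). Its line difference was 1.08 at 10 DAP and 1.46 at 45 DAP.

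Of the remaining DEGs in these lists, the vacuolar-sorting receptor gene VSR6 (MELO3C007003.2) was at 76.4, 63.2 and 44.9 CPM against 16.7, 22.9 and 18.3 CPM (log2 1.68, adjusted p = 0.0036). The purine permease gene PUP10 (MELO3C002729.2) was at 37, 47.3 and 50.7 CPM against 107, 86.9 and 104 CPM (log2 -1.13, adjusted p = 0.0032). The gene for a 21 kDa protein (MELO3C006821.2) was at 341, 298 and 288 CPM against 148, 151 and 143 CPM, with a log2 fold change of 1.08 and, without replicate 1 of “3_14”, 0.99, under 2-fold. An umecyanin gene (MELO3C004455.2), for a blue copper protein, was at 8.73, 8.21 and 11.9 CPM against 2.83, 2.29 and 1.35 CPM (log2 2.17, adjusted p = 0.0042). CRG1 (MELO3C012305.2) was at 0.47 to 1.06 CPM against 2.24 to 3.81 CPM (log2 -2.09, adjusted p = 0.0122), after 1041 to 1499 CPM in “1_14” and 176 to 233 CPM in “1_6” at 10 DAP. An F-box/kelch-repeat gene (MELO3C009596.2) had a log2 value of -0.996 (adjusted p = 0.00036) and missed the 2-fold threshold, which it passed without replicate 2 (-1.02) or 3 of “3_14” or replicate 1 of “3_6” (-1.03). The groups of these 6 genes did not overlap.

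**Figure D4:**
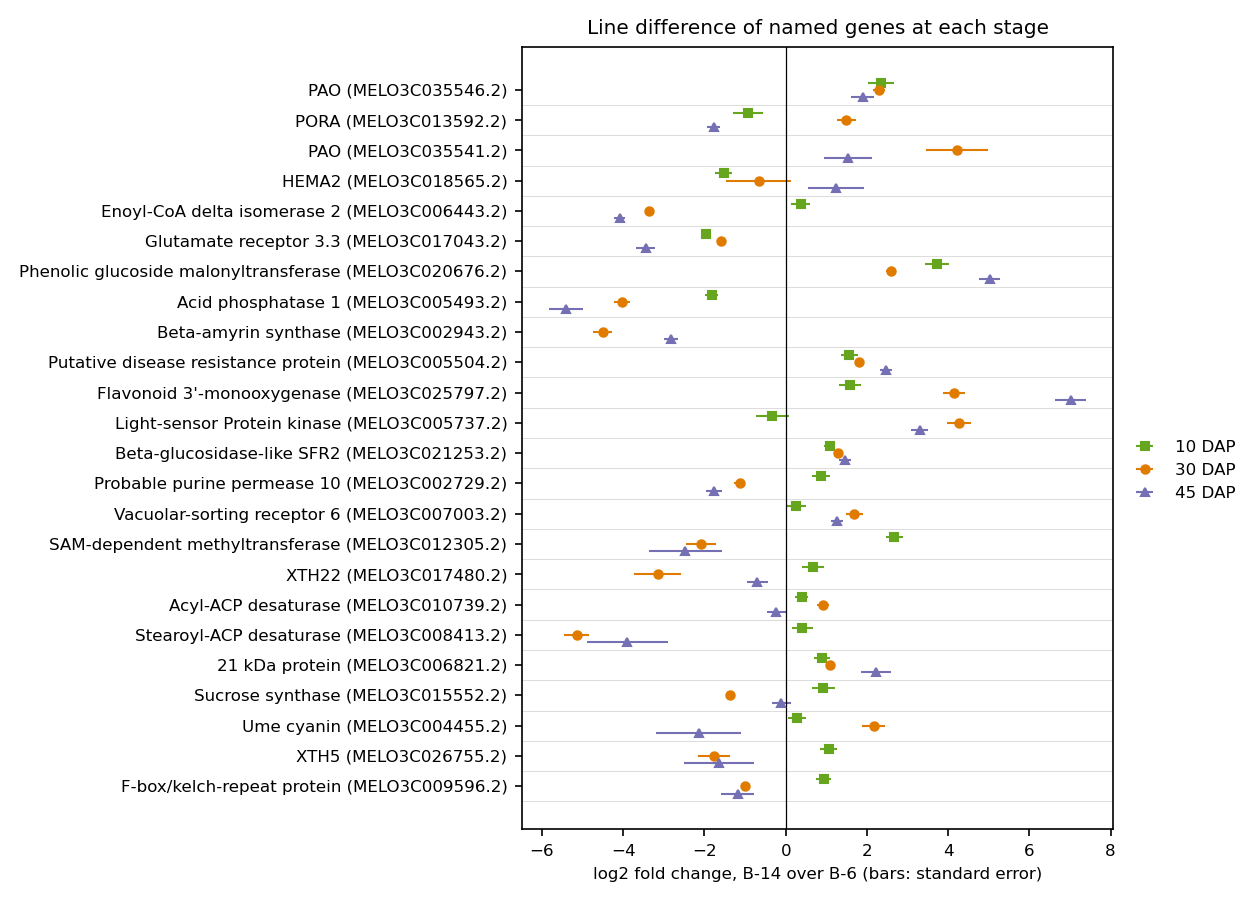
Log2 fold change of “B-14” over “B-6” with its standard error at 10 (squares), 30 (circles) and 45 DAP (triangles) for the genes named from the chlorophyll list and from the study's lists of line and stage differences. PORA (MELO3C013592.2) lies above 0 at 30 DAP and below 0 at 10 and 45 DAP, and flavonoid 3'-monooxygenase moves from 1.58 to 7.02; stages where a gene was not tested have no point.

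The recurrence of the line difference at the other stages was then counted. The line comparisons at 10, 30 and 45 DAP share no libraries. Of the 1090 DEGs at 30 DAP, 924 were tested at 10 DAP, where 315 were called in the same direction and 136 in the opposite direction. The 315 genes were 28.9% of all 1090 DEGs at 30 DAP and 7% of those at 10 DAP. Of all genes tested at 10 DAP, 27.2% were DEGs in either direction. At 45 DAP, 909 were tested, 332 were called in the same direction and 83 in the opposite one. The 332 genes were 30.5% of all 1090 DEGs at 30 DAP and 19.0% of those at 45 DAP. Of all genes tested at 45 DAP, 11.4% were DEGs in either direction. The shares of 28.9% and 30.5% count the same direction alone and include DEGs not tested at the other stage. They are therefore not like for like with the shares of all genes tested. Without replicate 3 of “3_14”, 554 DEGs were shared in direction with 10 DAP and 359 with 45 DAP. In “1_14”, replicate 2 had 78 genes at least 4-fold above both other replicates, and without it 352 DEGs were shared with 10 DAP.

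Among the 546 upregulated DEGs, 154 of 441 tested were also upregulated at 10 DAP and 181 of 486 at 45 DAP. Of all genes tested, 2113 of 16531 were upregulated at 10 DAP and 911 of 15382 at 45 DAP. Among the 544 downregulated DEGs, 161 of 483 tested were also downregulated at 10 DAP and 151 of 423 at 45 DAP. Over all genes, 2385 of 16531 were downregulated at 10 DAP and 835 of 15382 at 45 DAP. At all 3 stages, 149 genes were called in 1 direction, 84 higher and 65 lower in “B-14”. PAO (MELO3C035546.2), NAC21/22, WRKY75 and SFR2 were among the 84, and GLR3.3 and acid phosphatase 1 among the 65.

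A further 430 DEGs (39.4%) were called at 30 DAP and at neither other stage, 203 upregulated and 227 downregulated. A call at 1 stage alone does not show a difference between stages. By the interaction fits, the line difference of 163 of the 1090 DEGs differed from both 10 and 45 DAP, and 56 of these were among the 430. For 475 DEGs (43.6%) neither interaction was called. These fits use the 30 DAP libraries on which the DEGs were picked, so these counts describe the DEGs and do not test them independently.

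**Figure D5:**
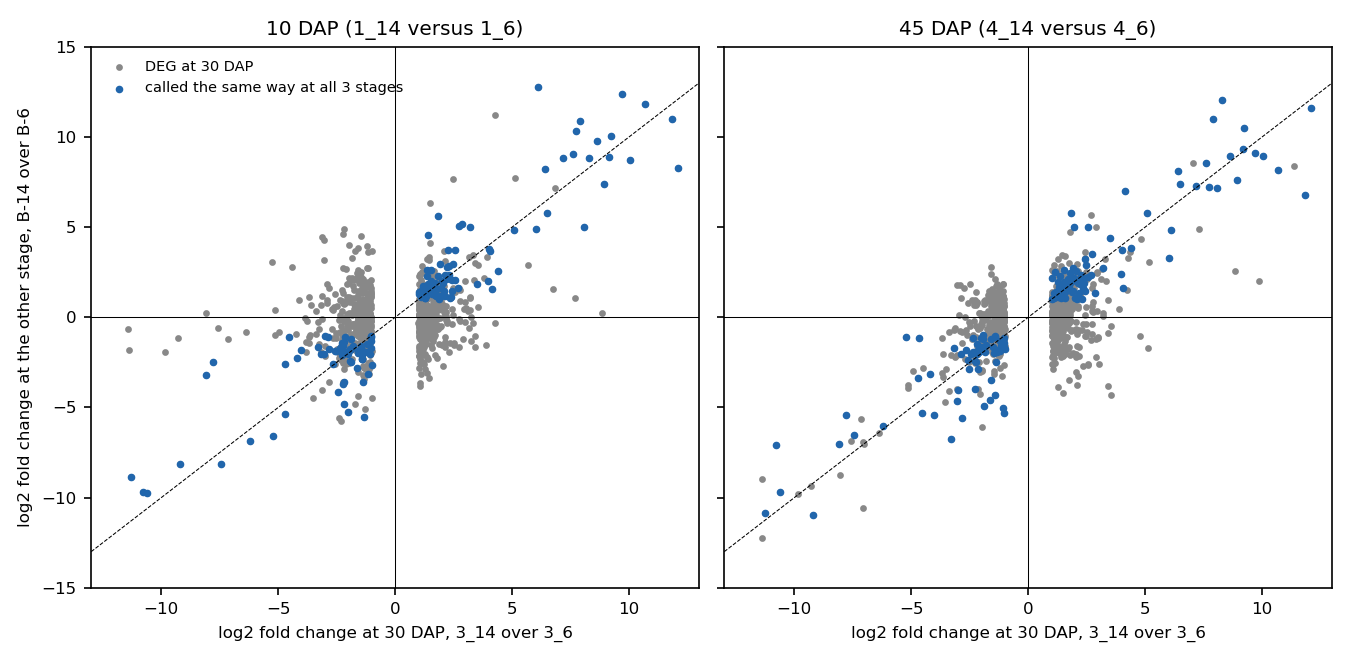
Log2 fold change of “B-14” over “B-6” at 10 DAP (left) and 45 DAP (right) against that at 30 DAP for the DEGs at 30 DAP that were tested at the other stage, 924 and 909 genes. Blue points are the 149 genes called in 1 direction at all 3 stages, the dashed line marks equal values, and the empty band around 0 on the x axis is the 2-fold threshold.

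Some genes were at or below a floor of 3 counts in 1 line at 30 DAP and above it in the other. This condition sets no minimum fold between the lines and does not show that a line lacks the gene. At 30 DAP, 114 genes were above 3 counts in every library of “3_14” and at or below 3 in every library of “3_6”, and 89 had the opposite pattern. Among the 203 genes there were 71 DEGs (7.03% of all genes tested were), a count that the choice of genes by these libraries partly fixes. With 1 library fewer in the condition, the 203 became 264 to 297, the highest without replicate 3 of “3_14”. In all 9 libraries of “B-6”, 39 of the 114 were at or below 3 counts, and in all 9 libraries of “B-14” 24 of the 89 were. Only the PAO gene MELO3C035541.2 of the 203 is named by the study.

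The unnamed DEGs with the smallest p-values included 3 such genes. MELO3C035414.2 was at 32.9, 30.2 and 32.3 CPM in “3_14” and had 0, 2 and 1 counts in “3_6”, at least 226-fold higher in “3_14”. MELO3C029848.2 was at 19.3, 18.5 and 25.1 CPM in “3_14” with 1, 1 and 2 counts in “3_6”, at least 149-fold higher. MELO3C032944.2 was the reverse, with 1, 0 and 0 counts in “3_14” and 56.1, 54.4 and 55.7 CPM in “3_6”, at least 420-fold lower in “3_14”. The bounds use a floor of 3 counts per library. The fourth gene, MELO3C006042.2, was at 6.6, 6.43 and 6.99 CPM in “3_14” and 54.5, 54.2 and 51.7 CPM in “3_6”, a log2 fold change of -2.99 (SE 0.07, adjusted p = 1.1e-05). In all 4 genes the replicates were tight, and replicate 3 of “3_14” sat with its group. Their choice by small p-values and groups without overlap largely fixes both traits.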

How the data were processed

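The authors sequenced stranded mRNA libraries as paired-end reads, trimmed them with Trimmomatic and aligned them with HISAT2. Versions, genome build, annotation, counting program and use of strand are not given in the sources used here. The deposited counts are whole numbers per gene and were used without change. None of the MELO3C identifiers matched the RefSeq table at hand (0 genes), so gene names are the study's and no positions or sequences are given.

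Groups were taken from the labels. The 6 libraries of a line comparison were fitted with R 4.3.3 and edgeR 4.0.16 (filterByExpr, TMM factors, quasi-likelihood F test). Line by stage interactions used 12 libraries. Alternatives were RLE factors, library size alone, other count filters (at least 1 count in all, or 10 in every library), DESeq2 1.42.0, voom of limma 3.58.1 with sample quality weights, 1 fit of all 18 libraries, a replicate block, an adjusted p-value threshold, a floor of 10 counts, and leaving out each library. Fits were tested on simulated data.

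Genes were named by rule: the PSY to cyclase genes; DEGs among the carotenoid genes; up to 8 DEGs by p-value of every other list; members whose call changed without replicate 3 of “3_14”; and the 2 unnamed DEGs per direction with the smallest p-values and no overlap. Members and lists were chosen with earlier results of these data known. DESeq was used in the study itself.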

Additional observations from a re-analysis of the deposited data

Results flagged for a closer look

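For 29 of the 57 named genes the line difference changed between 10 and 30 DAP, and for 14 it changed between 30 and 45 DAP, at 2-fold or more with an edgeR interaction adjusted p no higher than 0.05. Against these, 21.8% and 7.76% of all genes were called. The values below are log2 differences of the line difference, the later stage minus the earlier, so that a positive value means a shift towards higher levels in “B-14”. Many of these genes were named because they were DEGs at 30 DAP, whose libraries enter both interactions.

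From 10 to 30 DAP, the pigment genes shifted by 3.31 (PSY, MELO3C025102.2), 1.48 (PDS, MELO3C020832.2), 1.55 (Z-ISO), 3.03 (epsilon cyclase), -1.01 (CCD4), 3.86 (NCED2, MELO3C007127.2), 2.43 (PORA) and 3.42 (PAO, MELO3C035541.2). Among regulators, bHLH71 shifted by 1.51, bHLH69 by 3.25, bHLH35 by 4.15 and NAC2 by -3.06. Genes that the study lists for the mature fruit shifted by -3.72 (ECI2), -1.13 (malonyltransferase), -2.19 (acid phosphatase 1), -5.63 (beta-amyrin synthase), 2.57 (flavonoid 3'-monooxygenase) and 4.61 (light-sensor kinase). Genes from the lists of stage differences shifted by -1.99 (PUP10), 1.44 (VSR6), -4.75 (CRG1), -3.82 (XTH22), -5.55 (stearoyl-ACP desaturase), -2.28 (sucrose synthase), 1.90 (umecyanin), -2.80 (XTH5) and -1.92 (F-box/kelch-repeat). The unnamed genes MELO3C032944.2 and MELO3C006042.2 shifted by -10.76 and -1.95. The former rests on replicate 2 of “1_14”, without which it was -4.60.

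From 30 to 45 DAP, the shifts were -4.12 for the epsilon cyclase, -3.25 for PORA, 4.68 for bHLH71, 4.00 for WRKY75, 2.27 for bHLH149 and 2.62 for WRKY24 (MELO3C009127.2). They were -1.85 for GLR3.3, 2.46 for the malonyltransferase, 1.70 for beta-amyrin synthase, 2.90 for flavonoid 3'-monooxygenase, 2.48 for XTH22, -1.13 for the acyl-ACP desaturase, 1.27 for sucrose synthase and -4.29 for umecyanin.

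Of the 29 and 14 calls, 28 and 13 were kept without replicate 3 of “3_14”, and PAO (MELO3C035541.2) and the 45 DAP value of umecyanin (-4.11) were lost. Without that library, the shifts from 10 to 30 DAP were -4.72 for NAC2, 3.00 for bHLH35 and -4.66 for XTH22, and those from 30 to 45 DAP were 2.95 for bHLH149, 3.38 for WRKY24 and 3.33 for XTH22. Some calls were lost on leaving out single libraries, that one included: those from 10 to 30 DAP of PAO, CCD4, bHLH71 and malonyltransferase without any of 9, 6, 2 and 1 of 12 libraries, and those from 30 to 45 DAP of umecyanin, bHLH149, XTH22 and the acyl-ACP desaturase without any of 11, 9, 6 and 2.

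The values for PAO (MELO3C035541.2), beta-amyrin synthase, bHLH71 and MELO3C032944.2 rest on a stage or line with libraries at or near the floor of 3 counts, and their size depends on the prior count of the fit.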

How the results depend on the processing

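Of 194 alternative values of the counts reported, 182 lay within 1.5 times the value reported. The exceptions, beside leaving out libraries, were the carotenoid DEGs with library size alone (1 against 2), the transcription factor DEGs with voom (15 against 8), the DEGs shared with 10 DAP under the strict filter (189 against 315) and with voom (534), those shared with 45 DAP under the strict filter (188 against 332), and the interactions of 45 against 30 DAP with voom (2009 against 1250). By the adjusted p-value, voom called 1331 DEGs and the strict filter left 627, against 865. Leaving out 1 library gave 1043 to 1617 DEGs at 30 DAP, 1 to 3 among carotenoid genes, 7 to 16 among transcription factor genes and 288 to 554 shared with 10 DAP, all highest without replicate 3 of “3_14” (the carotenoid count also without replicate 2 of “3_6”). By the adjusted p-value these fits gave 578 (without replicate 3 of “3_6”) to 1422. The carotenoid count was 1 without replicate 1 or 2 of “3_14” or replicate 1 or 3 of “3_6”. Interactions of 45 against 30 DAP numbered 893 to 1704, the highest without replicate 1 of “4_6”.

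Of 847 values of the named genes, 795 kept direction and call. The 5 reversals were all of the PSY gene MELO3C016185.2, near 0: 0.031 with library size alone, 0.040 with voom, and from -0.11 to 0.15 without 1 library. CCD4 (-0.98) missed the 2-fold threshold with library size alone and NCED2 (0.85) with voom. Of the transcription factor genes added without replicate 3 of “3_14”, voom also called all but MYB12, and the fit of all 18 libraries called NAC2, MYB73 and WRKY24 (MELO3C009127.2). Over all genes, the median line difference was 0.05 on the log2 scale with library size alone and 0.01 as reported.

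Deviations of same-numbered libraries from their group means correlated at -0.38, 0.15 and -0.12. Libraries with different numbers were not compared in this way, so these values do not settle whether the replicate numbers pair the samples. With a replicate block there were 1092 DEGs, and 565 by the adjusted p-value.

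Depth limited genes near 3 counts per library, for which a fold change is a lower bound. With a floor of 10 counts, 195 genes were at the floor in 1 line and above it in the other at 30 DAP, against 203.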

Other observations

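Genes gained as DEGs at 30 DAP without replicate 3 of “3_14” were looked up at the other stages, a count chosen after the data were seen. Of the 614, 256 were called in the same direction at 10 DAP and 71 in the opposite one. At 45 DAP, 46 were called in the same direction and 83 in the opposite one. Of all genes tested, 27.2% were DEGs in either direction at 10 DAP and 11.4% at 45 DAP. Of the 472 that were lower in “B-14” at 30 DAP, 228 were also downregulated at 10 DAP, and at 45 DAP 21 were downregulated and 71 upregulated. Of all genes tested, 2385 of 16531 were downregulated at 10 DAP. At 45 DAP, 835 of 15382 were downregulated and 911 upregulated. The shares in either direction are not like for like with counts of 1 direction.

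Some of these genes were also high in replicate 3 of “4_14”, though by less. HEMA2 (MELO3C018565.2) was at 15.7, 11.2 and 53.9 CPM in the 3 libraries of “4_14”, MYBS3 (MELO3C024440.2) at 35.7, 28.7 and 85.4 CPM, and WRKY24 (MELO3C020489.2) at 51.1, 35.0 and 122 CPM. These genes were picked after their values were seen. In replicate 3 of “4_14”, 18 genes were at least 4-fold above both other replicates.

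At 10 DAP, replicate 2 of “1_14” had counts for genes that marked the other line. MELO3C032944.2 had 3, 752 and 4 counts in the libraries of “1_14”, 343 to 410 in “1_6”, 1143 to 1242 in “3_6” and at most 1 in “3_14” and “4_14”. Of the genes above 10 counts in all 9 libraries of “B-6”, 4 were above 10 counts in this library and at or below 3 in the other 8 of “B-14”, and the same count, each library against the other line, was 0 for each of the other 17. This library enters the comparison at 10 DAP and the interaction of 30 against 10 DAP, which had 3669 calls without this library against 3737.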
